A study of Rattus norvegicus with 232 samples.

Results

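The heat shock and chaperone genes described here were the 82 of 20859 genes in a RefSeq gene table of rat whole brain RNA whose symbols begin with Hspa, Hspb, Hspd, Hspe, Hsph, Hsp90, Dnaja, Dnajb, Dnajc, Cct or Bag followed by a number. They comprised 12 Hspa, 7 Hspb, 1 Hspd, 1 Hspe, 1 Hsph and 3 Hsp90 genes, 4 Dnaja, 11 Dnajb and 27 Dnajc genes, 9 Cct genes and 6 Bag genes. The brains came from naive male rats of the Hybrid Rat Diversity Panel (HRDP), a set of inbred rat strains made for mapping the genetics of complex traits, and no group received a treatment. The table held 197 animals of 74 strains: 88 animals of 30 HXB/BXH recombinant inbred strains, 43 animals of 19 FXLE/LEXF recombinant inbred strains and 66 animals of 25 classic inbred strains. BN-Lx/Cub (3 animals) and SHR/OlaIpcv (2 animals, numbered 1 and 4) are the progenitors of the HXB/BXH strains and stand among the classic inbred strains. Of the 74 strains, 54 had 3 animals, 15 had 2 and 5 had 1. The study's methods describe young adult animals for the strains they cover, and the labels give no age.

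Hspa proteins, the Hsp70 family, bind exposed hydrophobic stretches of unfolded proteins in a cycle driven by ATP. J-domain proteins, encoded by the Dnaja, Dnajb and Dnajc genes, deliver clients and start the ATP hydrolysis, while Bag proteins and Hsph1 release the nucleotide. Hsp90 proteins finish client proteins such as kinases and receptors, small heat shock proteins (Hspb) hold denatured proteins in solution, and the Cct subunits form a ring that folds actin and tubulin. When proteins denature, the transcription factor Hsf1 binds heat shock elements and raises the inducible members, whereas constitutive members such as Hspa8 are abundant without stress. In the endoplasmic reticulum the unfolded protein response raises Hspa5 and Hsp90b1 through a different promoter element. In brain these proteins are studied for their part in keeping neuronal proteins folded over a long cell life.

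Some names in the table need care. The row named Hspa1b belongs to the gene that RefSeq now calls Hspa1a, and the row LOC108348108 belongs to the gene RefSeq now calls Hspa1b, so both copies of the stress-inducible Hsp70 gene were measured although the symbol rule took only the first. Their coding sequences are nearly the same, and RSEM, among the tools the authors name, shares out reads that fit several transcripts by estimate, so each is uncertain alone. The row Cct8l1 is now called Cct8l2 and the row Hspb11 is now called Ift25. RefSeq names many pseudogenes after some members, up to 33 for Hspa8, 23 for Hsp90ab1, 20 for Hspd1 and 16 for Hsp90aa1, and reads of these genes could have been counted in part elsewhere.

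The promoters of members that the results below turn on were read from RefSeq (build GRCr8, 250 bases before to 50 bases after the start of each gene, printed 5′ to 3′ on the gene's strand). Promoters were found for 67 of the 82 members, 68 windows in all since Bag6 has 2. Each was searched on both strands for the heat shock element, either 3 alternating units (GAANNTTCNNGAA) or 2 (GAANNTTC or TTCNNGAA, which also lie within the longer form), and for the endoplasmic reticulum stress element (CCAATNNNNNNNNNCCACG). Capitals in the sequences mark these matches. The 5 sequences with heat shock element matches stand for inducible and constitutive genes alike, and the last 2 carry the endoplasmic reticulum stress element.
Hspa8, chr8:50080264-50080563, + strand: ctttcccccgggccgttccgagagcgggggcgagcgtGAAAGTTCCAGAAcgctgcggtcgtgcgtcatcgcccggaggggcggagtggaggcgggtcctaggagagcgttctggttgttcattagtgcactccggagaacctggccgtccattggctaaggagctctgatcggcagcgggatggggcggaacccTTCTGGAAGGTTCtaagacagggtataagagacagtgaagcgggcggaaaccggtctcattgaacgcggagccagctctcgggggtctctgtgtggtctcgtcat
Hsph1, chr12:10427118-10427417, + strand: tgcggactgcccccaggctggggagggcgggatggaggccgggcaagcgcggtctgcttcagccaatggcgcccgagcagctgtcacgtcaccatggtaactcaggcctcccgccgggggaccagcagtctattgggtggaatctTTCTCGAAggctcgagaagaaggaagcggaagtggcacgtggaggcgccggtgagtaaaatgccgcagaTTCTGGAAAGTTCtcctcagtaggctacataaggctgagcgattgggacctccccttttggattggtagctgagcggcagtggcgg
Dnajb1, chr19:41431092-41431391, - strand: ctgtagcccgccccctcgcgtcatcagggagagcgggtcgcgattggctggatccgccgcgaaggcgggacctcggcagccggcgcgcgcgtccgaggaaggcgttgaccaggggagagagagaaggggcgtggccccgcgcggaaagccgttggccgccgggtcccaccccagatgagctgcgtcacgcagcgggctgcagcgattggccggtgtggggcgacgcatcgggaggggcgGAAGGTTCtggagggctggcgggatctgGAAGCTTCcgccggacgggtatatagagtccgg
Hspb1, chr12:26432252-26432551, - strand: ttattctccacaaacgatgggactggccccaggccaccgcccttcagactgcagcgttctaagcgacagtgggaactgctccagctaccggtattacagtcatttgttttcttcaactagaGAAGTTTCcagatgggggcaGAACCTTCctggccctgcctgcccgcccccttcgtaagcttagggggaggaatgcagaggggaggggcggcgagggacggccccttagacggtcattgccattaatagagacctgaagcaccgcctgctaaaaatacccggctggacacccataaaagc
Hspe1, chr9:64084077-64084376, + strand: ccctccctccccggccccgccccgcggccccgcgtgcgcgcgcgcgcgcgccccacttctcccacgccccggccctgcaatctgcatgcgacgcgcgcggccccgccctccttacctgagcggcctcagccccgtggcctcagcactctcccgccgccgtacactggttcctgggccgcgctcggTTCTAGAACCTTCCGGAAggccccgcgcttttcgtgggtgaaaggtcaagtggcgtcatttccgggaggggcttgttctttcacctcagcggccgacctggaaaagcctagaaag
Hspa5, chr3:38452766-38453065, + strand: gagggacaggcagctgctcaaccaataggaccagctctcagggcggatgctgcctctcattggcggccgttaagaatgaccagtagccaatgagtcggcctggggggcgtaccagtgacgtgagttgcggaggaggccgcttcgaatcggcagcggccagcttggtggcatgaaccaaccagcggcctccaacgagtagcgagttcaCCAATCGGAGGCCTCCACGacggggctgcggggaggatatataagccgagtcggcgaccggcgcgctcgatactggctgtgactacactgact
Hsp90b1, chr7:23012244-23012543, - strand: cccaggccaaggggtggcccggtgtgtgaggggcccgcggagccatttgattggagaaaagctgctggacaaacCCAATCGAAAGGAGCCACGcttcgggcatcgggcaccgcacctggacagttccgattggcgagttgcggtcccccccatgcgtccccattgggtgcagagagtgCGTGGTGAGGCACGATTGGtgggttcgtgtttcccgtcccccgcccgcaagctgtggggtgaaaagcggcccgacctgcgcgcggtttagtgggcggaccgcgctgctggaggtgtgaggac

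The 3-unit heat shock element stood in 6 of the 68 member windows (8.82%) against 0.798% of all 33469 promoters of this length. It was found at Cct4, Dnaja1, Hspa8, Hspd1, Hspe1 and Hsph1. The windows of Hspd1 and Hspe1, the mitochondrial chaperonin and its lid, overlap on opposite strands of chromosome 9, so 1 element was found from both sides. The 2-unit form stood in 20 of 68 member windows (29.4%) against 15.9% of all promoters, and in 6 of the 7 windows available for heat-inducible members. Of these 7, the 3-unit form stood in 2. The endoplasmic reticulum stress element was found at Hspa5, Hsp90b1 and Dnajc3, 3 of 68 (4.41%), against 0.0657% of all promoters. All 3 belong to the 8 members of the endoplasmic reticulum list. Hspa5 and Hsp90b1 are the genes named above as raised through such an element, so their matches are no independent result. The Hspa1b row's window (chr20:3859506-3859805, + strand) held none of these letters, which says nothing about elements outside it. A match is a description of the letters and was not tested for function.

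Expression is given on a log2 scale that the authors deposited, on which values of weakly expressed genes are drawn together, so levels of different genes are not ranked against each other. Repeat libraries of an animal were averaged, and the depth behind each value is unknown because the values are not counts. The markers of whole brain were present in every animal, with Snap25 of neurons between 14.97 and 15.78 and Gfap of astrocytes between 13.81 and 14.80. The mean of 4 liver markers ranged from 5.89 to 16.99 with a median of 7.19, and the highest value belonged to LE/Stm 2, the only animal of its strain. That animal and 3 LEW/Crl animals were treated as doubtful, and counts of genes without them are given where they bear on a result. The liver values above name no LEW/Crl animal, and no value given here shows why LEW/Crl was doubted.

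How far do these genes differ between strains? An F-test of limma over strain, adjusted over all genes at a false discovery rate of 0.05, called 27 of the 82 members, against 37.3% of all genes. The share of members (32.9%) was thus below the background and not a result about chaperones as a class. The median share of variation between strains, R2, was 0.451 for members and 0.451 for all genes, where 0.372 is the value this design gives with no strain effect. Of the 61 members above the median level of all genes, 18 were called when the test was run on such genes alone, beside 34.3% of them all. Without the doubtful animals 26 members were called, beside 36.4% of all genes. With sequencing batch as a covariate 44 members were called, beside 58.7% of all genes, again below the background. Here and below, fits with this covariate took the library of lowest batch number of each animal, not the library mean. Over all strains this fit tested 71 strain terms, against 73 in the main one, so more than the covariate changed.

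Within the separate families the counts were again near or below the background. In HXB/BXH the test called 17 members, beside 19.1% of all genes, and 16 of these were among the 27 called over all strains; with batch as a covariate it called 26, beside 32.1%. In FXLE/LEXF it called 1 member, Hspa2, beside 4.61% of all genes. In the classic inbred strains it called 6 members, beside 19.3% of all genes, and 3 of them were called in HXB/BXH as well. Another 9 members passed the test over all strains and in no separate family. Such overlaps were not counted over all genes, so they are no result about the members. Whether the families differ in these effects was not tested, and they differ in numbers of animals.

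Among the Hsp70 genes Hspa2, which is abundant in testis and also made in brain, had the highest R2 of all members, 0.664 (adjusted p = 3.2e-08). Its level in single animals ran from 8.46 through a median of 8.83 to 9.28. The 2 animals of LEXF5/Stm were at 9.19 and 9.28, and the 3 of LEXF10A/Stm, the lowest strain, were at 8.59, 8.59 and 8.50. The difference of these strain means was 0.67 log2 units, or 1.60-fold. Here and below the highest and lowest strains were picked on these same values. Their separation and fold differences are therefore descriptions and no support for a strain effect. Hspa2 was called in FXLE/LEXF (adjusted p = 0.00124) and in the classic inbred strains (0.000112), whereas in HXB/BXH its adjusted p was 0.102. It was 1 of 3 members whose strain means spread more widely (SD 0.140) than animals of a strain did (SD 0.124), against 8.60% of all genes.

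Hspa5, the main Hsp70 of the endoplasmic reticulum and a sensor of unfolded protein there, also differed by strain (R2 0.624, adjusted p = 3.58e-06). Animals ranged from 13.20 to 13.99 with a median of 13.57. BXH8/Cub was highest, with animals at 13.94, 13.98 and 13.78, and HXB1/Ipcv lowest, at 13.20, 13.25 and 13.54. Of the HXB1/Ipcv animals, 1 lay near the median of the panel. Hspa8, the constitutive cytosolic Hsp70, moved over a narrower range, from 16.31 through 16.58 to 16.87, and was called too (R2 0.549, adjusted p = 0.00281). Its highest and lowest strains, BUF/MnaMcwi at 16.86 and LEXF9/Stm at 16.39, were each known from 1 animal. The calls for Hspa2 and Hspa5 held in all 10 alternative fits. When the animals numbered 1, 2 or 3 were left out in turn, the calls for Hspa8 and Bag3 were lost each time. Those for Dnaja4, Dnajc14, Dnajb14, Dnajc30, Dnajb1 and Hspa13 were lost without animals 1 and without animals 2, and that for Hspb3 without 2 and without 3. Hspa1b, Dnajb5 and Hsph1 lost theirs without animals 1, Dnajc22 without 2 and Hspb1 without 3.

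Hspa1b, the classical stress-inducible Hsp70, differed by strain with R2 0.575 (adjusted p = 0.000113). Animals ran from 5.58 through 6.17 to 7.21. The highest strain mean, 6.72 ± 0.66 (SD, n = 3) in BXH8/Cub, rested on 2 animals at 7.21 and 6.98 while the third was at 5.96, below the median of all animals. HXB21/Ipcv was lowest at 5.80 ± 0.12 (n = 3), with animals at 5.94, 5.76 and 5.71, so the strains came close to overlapping. The ratio of the strain means was 1.89-fold. Within HXB/BXH alone the adjusted p was 0.000362. The second copy, row LOC108348108, was called over all strains as well (R2 0.527, adjusted p = 0.00294), with animals from 5.61 through 6.44 to 7.62. Its extreme strains were others than those of Hspa1b. LEXF5/Stm was highest, with animals at 6.95 and 7.58, and BXH2/Cub lowest, at 5.75, 5.98 and 6.01.

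**Figure D1:**
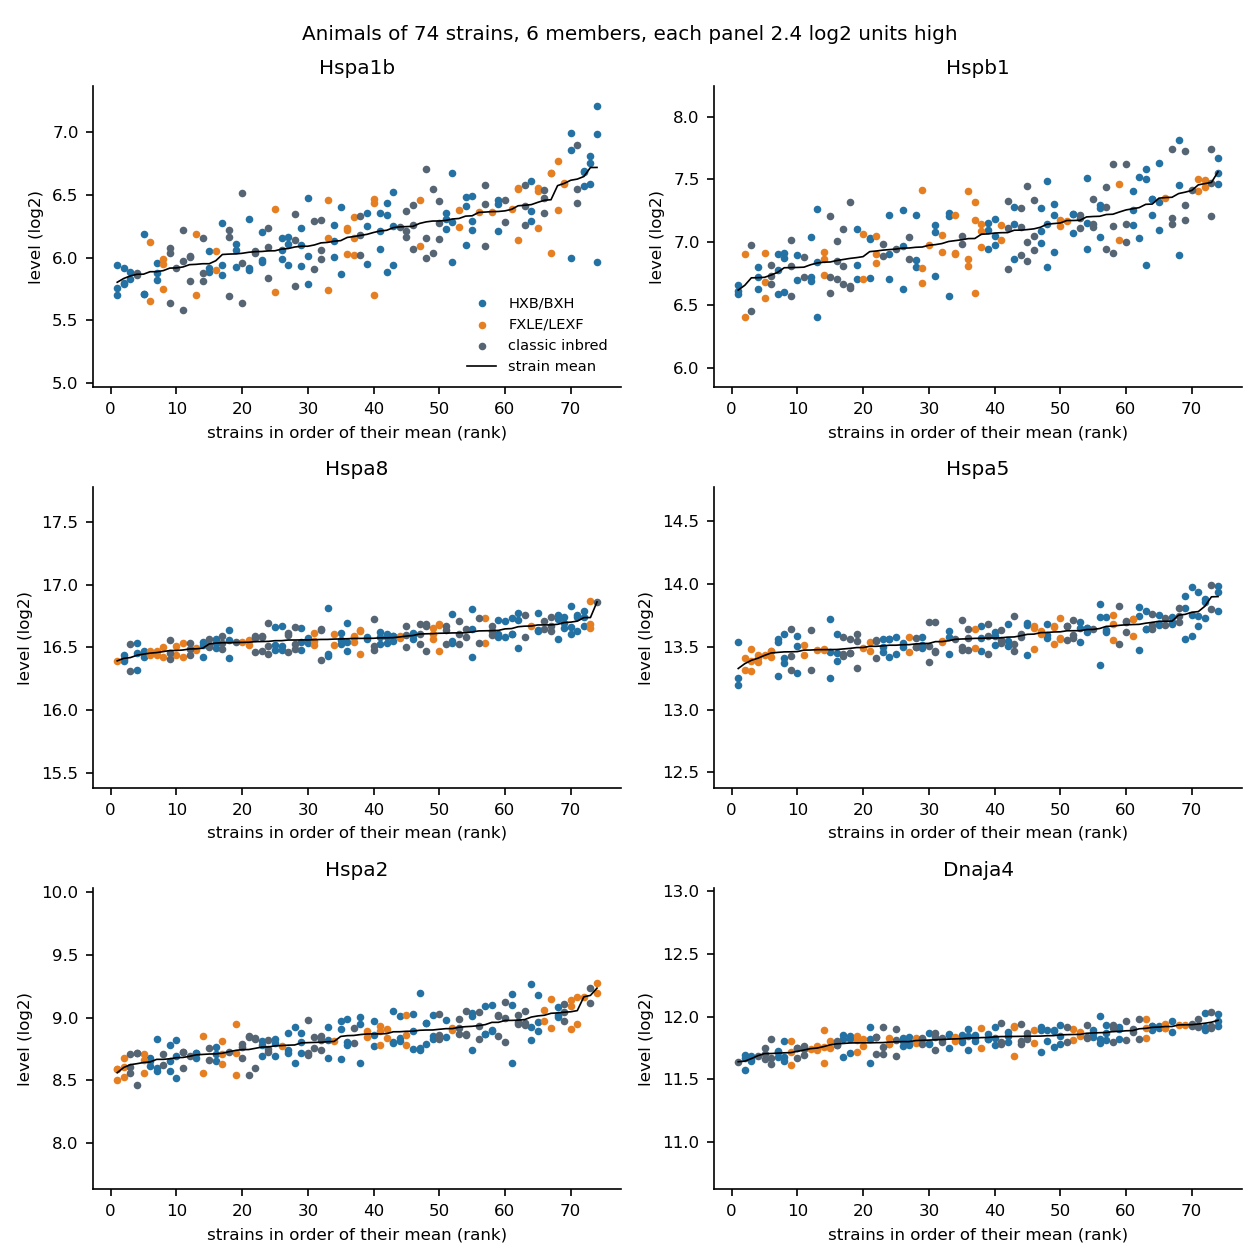
Levels of 6 members (log2 scale, vertical axis) in every animal, with the 74 strains in order of their mean (horizontal axis, rank); points are animals coloured by family and the black line joins strain means. All panels span the same height, so the spread of animals around the line is seen to be wide for Hspa1b (5.58 to 7.21) and Hspb1 (6.40 to 7.81) and narrow for Hspa8 (16.31 to 16.87) and Dnaja4 (11.57 to 12.03).

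Other J-domain genes stood near the top. Dnaja4, a cytosolic partner of Hsp70, had R2 0.634 over animals from 11.57 to 12.03, and BXH13/Cub was highest at 11.97 ± 0.04 (n = 3) while the lone BUF/MnaMcwi animal was lowest at 11.64. Dnajc14, a J-domain protein of the endoplasmic reticulum that acts in receptor export, had R2 0.619, with HXB2/Ipcv at 11.16 ± 0.04 (n = 2) and FHH/EurMcwi at 10.83 ± 0.06 (n = 3). Dnajb5 had R2 0.582. BXH10/Cub was highest, with animals at 11.50, 11.50 and 11.68, and HXB23/Ipcv lowest, at 11.11, 10.94 and 10.85. Dnajc30, which acts in mitochondria, had R2 0.578 and ranged from 7.91 to 8.54. Dnajb1, the main inducible partner of Hsp70, had R2 0.555 (adjusted p = 0.00176), and BXH13/Cub at 10.94 ± 0.05 (n = 3) exceeded HXB27/Ipcv at 10.51 ± 0.07 (n = 3) by 0.43 log2 units.

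Of the 7 Hspb genes, which include the row Hspb11 now called Ift25, 3 were called (42.9%, against 37.3% of all genes). These were Hspb1, Hspb3 and Hspb6. Hspb1, which guards actin filaments and is made in vessels and in stressed glia, reached R2 0.557 (adjusted p = 0.000454), and animals spread from 6.40 through 7.04 to 7.81. HXB13/Ipcv was highest, with animals at 7.46, 7.67 and 7.55, and HXB27/Ipcv lowest, at 6.61, 6.58 and 6.66. The means of these strains, picked as the extremes, differed 1.92-fold. Hspb3, a gene of muscle, was at the foot of the scale, 2.18 to 3.06, where the scale draws values together, and its lowest strain was the doubtful LE/Stm animal at 2.35.

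Taking the lists by role, 5 of 9 heat-inducible members were called (Hspa1b, Hspb1, Hsph1, Dnajb1 and Bag3) and 2 of 10 constitutive cytosolic ones (Hspa8 and Hspa4). Hsph1, an Hsp110 that exchanges nucleotide on Hsp70, ranged from 12.52 to 13.26 (R2 0.517). Bag3, which hands clients to autophagy, ranged from 7.14 to 8.51 (R2 0.489), and its call was lost with each set of left-out animals (adjusted p up to 0.355). The others of the inducible list did not pass: Hsp90aa1, the inducible Hsp90, had an adjusted p of 0.101 over animals from 14.70 to 15.71, Dnajb4 had 0.189, Dnaja1 0.203 and Hspa4l 0.222. Of these, Dnaja1 and Dnajb4 passed with batch as a covariate (adjusted p = 0.0373 and 0.0325), and Dnaja1, Dnajb4 and Hsp90aa1 passed without the animals numbered 3 (0.0166, 0.00216 and 0.00835). Of the endoplasmic reticulum list 4 of 8 were called (Hspa5, Hspa13, Dnajb11 and Dnajc3), of the mitochondrial list 1 of 8 (Dnajc30) and of the Bag genes 1 of 6. These counts stand beside 37.3% of all genes called, and lists this short were not tested against each other.

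The chaperonin list held 9 genes. The 7 well expressed subunits Cct2, Cct3, Cct4, Cct5, Cct6a, Cct7 and Cct8 had mean levels from 11.62 to 12.68. The pooled SD between animals of a strain had a median of 0.120 over the list, against 0.132 over all members, with Cct8l1 (0.180), Cct6b (0.180) and Cct8 (0.159) above the latter. Cct6a was called (R2 0.536, adjusted p = 0.00338), with HXB23/Ipcv highest at 11.88 ± 0.06 (n = 3), and so was its testis relative Cct6b (adjusted p = 0.0494), which was weakly expressed at 5.14 to 6.16. The highest strain for Cct6b was the doubtful LE/Stm animal at 6.05. The other 7 had adjusted p from 0.0977 for Cct2 to 0.709 for Cct8l1.

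Variation within strains was set beside variation between them. The SD between animals of a strain, pooled over strains, had a median of 0.132 over the members and 0.162 over all genes. For the SD of strain means these medians were 0.0973 and 0.117. Each strain mean rests on few animals, so the SD of strain means also holds spread within strains, which was not taken out. Only 19 of the 82 members lay above the median within-strain SD of all genes. Members were higher in level, with a median mean of 10.52 against 8.32, and the part of level was not tested. The repeat libraries of the 2 SHR/OlaIpcv animals, 12 of animal 1 and 6 of animal 4, had a median SD of 0.126 over the members, and for 36 members it exceeded the SD between animals of a strain. For the rest it was smaller. Each repeat library of an animal came from a different sequencing batch, so this SD holds the spread of batches too. Some animals of a strain shared a batch, and the 2 SDs are not like for like.

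Inducible and constitutive members were set side by side at each of these levels. The median SD within strains was 0.177 for the heat-inducible list and 0.111 for the constitutive cytosolic list, but the lists overlapped, at 0.0925 (Dnajb1) to 0.247 and at 0.0622 to 0.223 (Bag6), and were not tested against each other. The medians of the SD of strain means were 0.116 and 0.0837, and those of repeat libraries 0.208 and 0.104. Since the SD of strain means holds part of the spread within strains, its order is not independent of that within strains. The order was the same in each family, with 0.180 against 0.109 within strains in HXB/BXH, 0.162 against 0.0886 in FXLE/LEXF and 0.189 against 0.125 in the classic inbred strains. The lists differ in level, with median means of 10.68 and 12.70, and the part of level in the difference was not tested. With batch removed the medians within strains were 0.174 and 0.108. The repeat libraries of the same animal, from which batch was not removed, stood in the same order.

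The 6 members with the widest spread within strains were Hspa1b (SD 0.247), Hspb1 (0.244), Dnajc22 (0.239), Bag3 (0.226), Bag6 (0.223) and Dnajb9 (0.221). Dnajc22, a membrane J-domain protein, was weakly expressed, from 3.95 to 5.35. Bag6, which guards membrane proteins before insertion, ranged from 11.37 to 12.88, and its lowest animal, BN-Lx/Cub 1, was far from the other 2 of its strain at 12.15 and 11.92. Dnajb9, an Hspa5 partner raised by the unfolded protein response, ranged from 9.80 to 11.30, and its highest animal was again BN-Lx/Cub 1, the others of the strain being at 10.53 and 10.71. Neither Bag6 (adjusted p = 0.108) nor Dnajb9 (0.335) passed the test between strains, although Bag6 passed with batch as a covariate (0.00187). The narrowest members were Dnajc5, the synaptic vesicle chaperone, at an SD of 0.0622, and Dnajc6, the clathrin uncoating partner of Hspa8, at 0.0669.

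**Figure D2:**
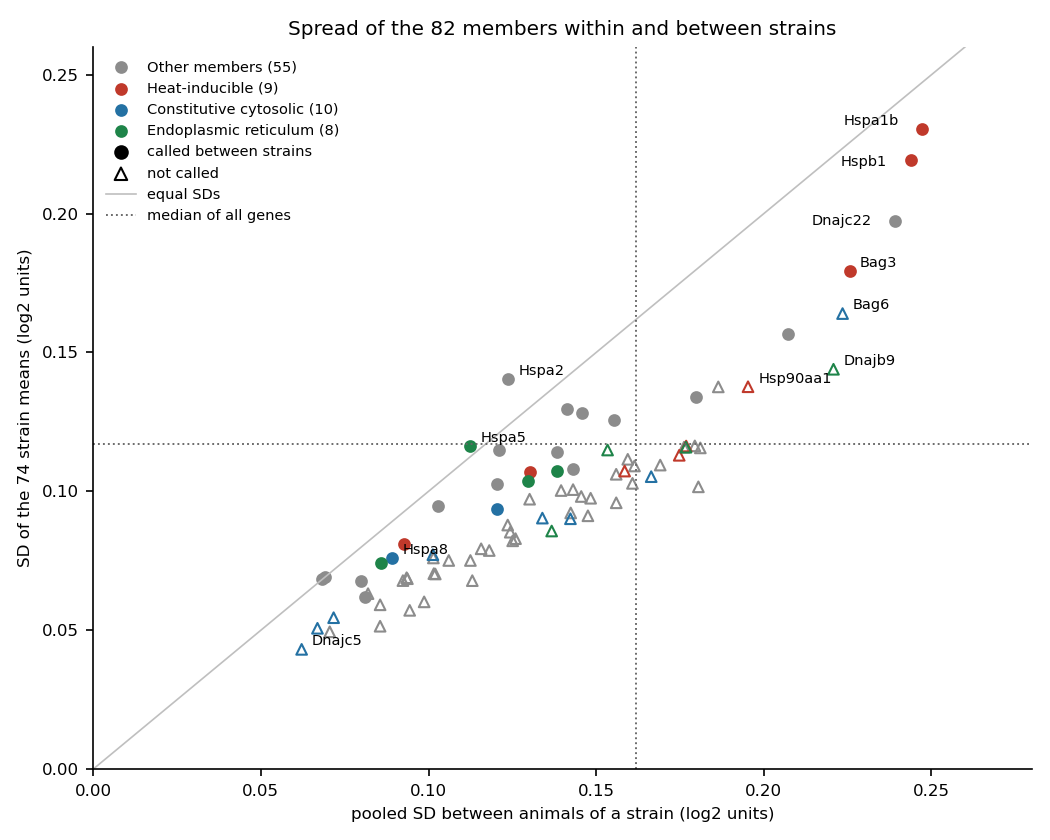
SD between animals of a strain (horizontal axis, log2 units) against the SD of strain means (vertical axis, log2 units) for the 82 members. The SD of strain means is over the 69 strains with 2 or more animals, although the axis title names 74. Colours give the role list, filled circles the 27 members called between strains and open triangles the others. Dotted lines mark the medians of all genes (0.162 and 0.117) and the grey line equal SDs. Heat-inducible Hspa1b, Hspb1 and Bag3 lie at the upper right, and all but 3 members lie below the line.

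Did the members rise and fall together among animals of a strain? Deviations from the strain mean were correlated over 192 animals of 69 strains for 13 pairs, with p from permuting animals within strains (100000 draws, two-sided) adjusted over the pairs. The copies Hspa1b and LOC108348108 gave r = 0.57 (rho 0.49, adjusted p = 3.25e-05, from the smallest p that the permutations can give, 1e-05), where shared reads could take part. Hspa1b rose with Bag3 (r = 0.40, rho 0.37, permutation p = 2e-05, adjusted p = 5.2e-05) and with Hspb1 (r = 0.34, rho 0.30, permutation p = 0.00183, adjusted p = 0.0034). With batch removed as well these were 0.42 and 0.36. Members outside the inducible list correlated with Hspa1b about as strongly, among them Hspa12b (0.41), Bag6 (0.41), Dnajc16 (0.38) and Dnajc11 (0.35), and Dnajc15 stood lowest at -0.40, values that are descriptions with no test. Its relation with Dnajb1 was weaker (r = 0.21, rho 0.22, permutation p = 0.0279, adjusted p = 0.0454; 0.22 with batch removed) and did not pass when animals were centred on their median (r = 0.14, adjusted p = 0.199).

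Other fixed pairs of Hspa1b were not detectable or negative. With Hsph1 r was 0.02 (rho 0.04, permutation p = 0.859, adjusted p = 0.859), with Hspa8 -0.11 (rho -0.09, permutation p = 0.178, adjusted p = 0.231) and with Hspa5 -0.05 (rho -0.02, permutation p = 0.513, adjusted p = 0.607). With Hsp90aa1 it was -0.19 (permutation p = 0.0352, adjusted p = 0.0508), and the rank correlation of -0.20 passed (adjusted p = 0.0343). With Hspd1 it was -0.30 (rho -0.28, permutation p = 0.00084, adjusted p = 0.00182; -0.27 with batch removed). The fixed pairs from the mitochondrial, endoplasmic reticulum and chaperonin lists were strong, each with the smallest p that the permutations can give. Hspd1 with Hspe1 gave r = 0.61 (rho 0.61), Hspa5 with Hsp90b1 0.65 (rho 0.62) and Cct2 with Cct5 0.69 (rho 0.65), and with batch removed they were 0.61, 0.61 and 0.67. Hsp90aa1 with Hsp90ab1, the inducible and the constitutive cytosolic Hsp90, gave 0.05 (rho 0.04, permutation p = 0.65, adjusted p = 0.704), which became 0.23 (adjusted p = 0.0202) after median centring. The 2 animals farthest from the median of the gene named first in each pair were also left out. Then r stayed at or above 0.59 for the mitochondrial, endoplasmic reticulum and chaperonin pairs, with Hspa1b and Bag3 at 0.35.

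Taken over all 36 pairs of the 9 heat-inducible genes, as a description with no test, 19 correlations were above 0 and the median was 0.01. They split into blocks. Dnaja1, Dnajb4, Hsp90aa1 and Hspa4l correlated with each other at 0.35 to 0.92, the highest being Dnaja1 with Hsp90aa1. Hspa1b, Hspb1, Bag3 and Dnajb1 correlated with each other at 0.21 to 0.54. Across the blocks Hspb1 with Dnaja1 and with Dnajb4 were at -0.46 and -0.45, and Hsph1 followed Dnajb4 at 0.61. All 28 pairs of the endoplasmic reticulum list were above 0, with a median of 0.47 and a range of 0.02 to 0.78. With batch removed as well 27 of 28 were. That list leaves out Dnajc14 and Dnajb14, described above as endoplasmic reticulum proteins. Members of the mitochondrial list had 14 of 28 pairs above 0, with a median of 0.02 and a range of -0.69 to 0.84. Constitutive cytosolic members had 29 of 45 above 0, with a median of 0.19 and a range of -0.74 to 0.88. Among the chaperonin genes 27 of 36 pairs were above 0 with a median of 0.21, the highest being Cct4 with Cct8 at 0.87, and 7 of the 9 pairs below 0 held the weakly expressed Cct8l1.

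**Figure D3:**
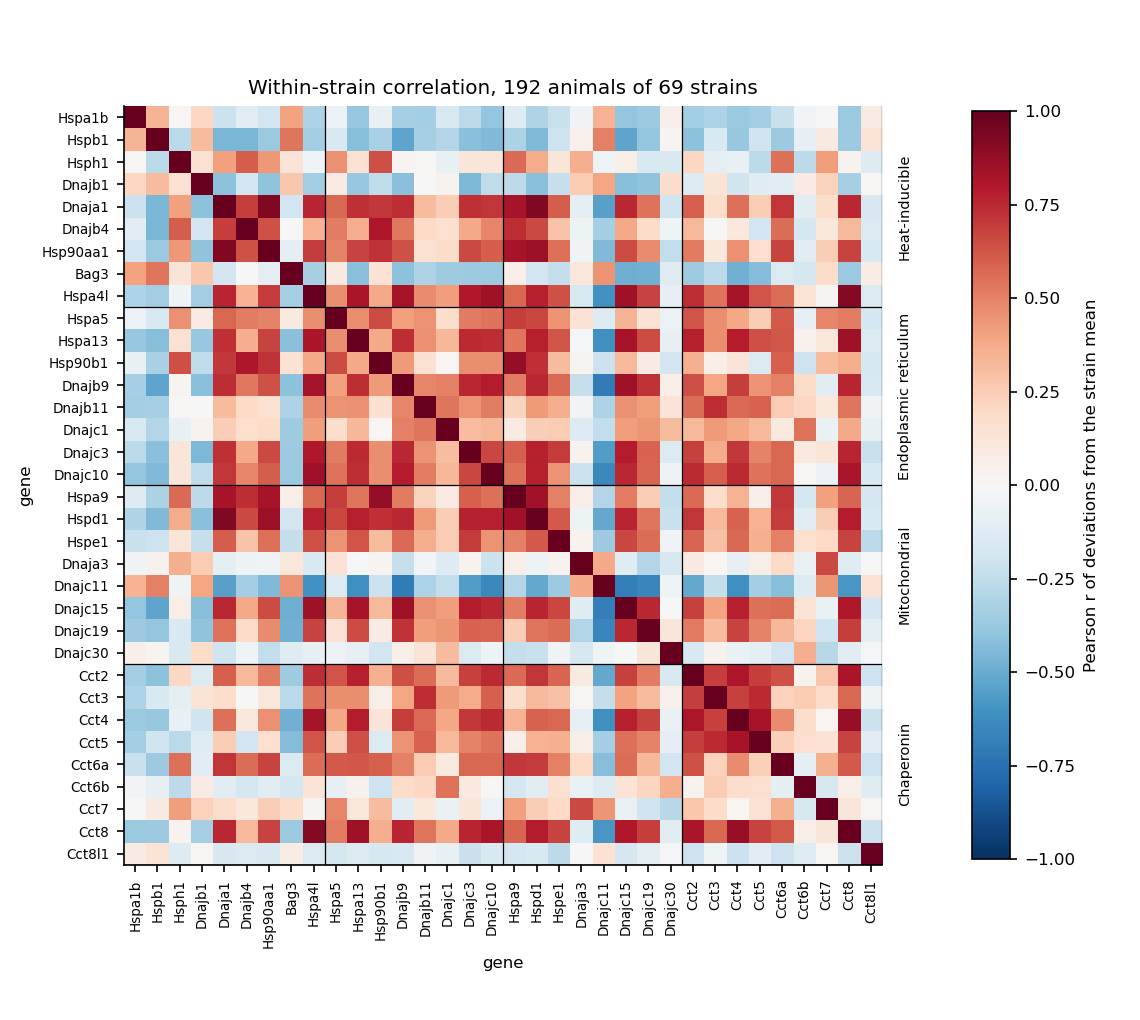
Pearson correlation of deviations from the strain mean over 192 animals of 69 strains, for the genes of 4 role lists (rows and columns, lists parted by black lines; red above 0, blue below 0). The block of Dnaja1, Dnajb4, Hsp90aa1 and Hspa4l is red within itself and with most endoplasmic reticulum and mitochondrial genes (Dnaja1 with Hsp90aa1 0.92), whereas Hspb1 is blue against it (-0.46 with Dnaja1), Hspa1b more weakly so, and Bag3 is near 0 with Dnajb4.

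Some of these correlations changed when an axis shared by many genes was taken out. The deviations of each gene were scaled to the same SD, and their leading principal axis over all genes held 24.1% of the variance. The sign of the axis is arbitrary and was set so that Hsp90aa1 is positive. In all 46 of 82 members correlated with the axis beyond 0.5 in either direction, against 39.3% of all genes. Of these, 36 were positive, led by Dnajb9 (0.90), Dnajc15 (0.87) and Dnajc10 (0.85), and 10 were negative, led by Bag6 (-0.85) and Dnajc11 (-0.80). Hspb1 was at -0.66, Bag3 at -0.53, Hspa1b at -0.41, Hsp90aa1 at 0.65 and Hsph1 at 0.14. Members of the endoplasmic reticulum list were all positive, from 0.41 (Hspa5) to 0.90 (Dnajb9). Outside that list Dnajb14 was at 0.69 and Dnajc14 at -0.45. The part of the axis in the correlations within the list was not tested. With the axis removed, an alternative chosen after the data were seen, Hspa1b with Bag3 fell to r = 0.24 (adjusted p = 0.0449) and with Hspb1 to 0.11 (adjusted p = 0.419), while with Hspd1 it became 0.05. Hspa5 with Hsp90b1 was then at 0.57, Cct2 with Cct5 at 0.60 and Hspa1b with LOC108348108 at 0.47, while Hspd1 with Hspe1 fell from 0.61 to 0.35. The blocks of inducible genes changed in part. Dnaja1 with Hsp90aa1 was at 0.87 and Hsph1 with Dnajb4 at 0.65, but Dnajb4 with Hspa4l went from 0.35 to -0.24. Dnajb1 went to near 0 with Hspb1 (0.32 to -0.015), Bag3 (0.27 to 0.0057) and Hspa1b (0.21 to 0.0087). Across the blocks Hspb1 with Dnaja1 went from -0.46 to 0.12 and Bag3 with Dnaja1 from -0.19 to 0.41. What the axis stands for was not tested.

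Markers of cell types moved with some members. The mean of 4 endothelial and mural markers (Cldn5, Flt1, Pecam1 and Acta2), between 9.39 and 10.07 in all animals, correlated within strains with Hspb1 at 0.53, with Hspa2 at 0.37 and with Hspa1b at 0.36. The mean of 3 neuronal markers (13.92 to 14.39) correlated with Hspa2 at 0.44 and with Hsph1 at 0.35, that of 3 microglial markers (9.59 to 10.44) with Hspb1 at 0.38, and that of 3 oligodendrocyte markers (15.01 to 15.95) with Hspa5 at 0.33. The mean of 3 astrocyte markers (13.85 to 14.56) correlated with Hspb1 at 0.31 and with Hspa2 at 0.31, and that of 4 choroid plexus markers (9.08 to 10.58) with Hspb1 at 0.27 and with Hspa5 at 0.24. The mean of 4 blood markers ran from 11.17 to 14.00 and correlated with Hspb1 at 0.27 and with Hspa1b at 0.07. Below 0 were the microglial markers with Hsph1 (-0.32), the blood markers with Hsph1 (-0.27) and the oligodendrocyte markers with Hspa1b (-0.25). The 1 measured pituitary marker (4.42 to 6.65) correlated with Hspb1 at 0.41. Their part in the results was not tested. In whole tissue fewer cells of a type and less RNA per cell cannot be told apart.

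Between the progenitors 2 members passed the limma contrast, both higher in BN-Lx/Cub, against 4.51% of all genes in either direction and 2.63% higher in BN-Lx/Cub. Dnajb14, a J-domain protein of the endoplasmic reticulum membrane (chromosome 2 in build rn6), was at 12.22, 12.10 and 12.11 in BN-Lx/Cub and at 11.81 and 11.65 in SHR/OlaIpcv. The groups did not overlap, with a difference of 0.42 (SE 0.11, adjusted p = 0.0114). The only Dnajb14 transcript in the transcript values, NM_001109193.2, ran the other way, at 7.19 ± 0.25 (n = 3) in BN-Lx/Cub, the lowest strain, and 8.06 ± 0.04 (n = 2) in SHR/OlaIpcv, a difference that was not tested. Hspa13, an Hsp70 relative of the endoplasmic reticulum (chromosome 11 in build rn6), was at 11.01, 10.57 and 10.60 against 10.29 and 10.29, a difference of 0.44 (SE 0.13, adjusted p = 0.0244). The SHR/OlaIpcv values are means of 12 and 6 libraries over many batches. BN-Lx/Cub animals 1 and 2 had 1 library each, both of batch 3, and animal 3 had 2. The contrast weighted all animals alike, although the SD of Hspa13 was 0.0033 in SHR/OlaIpcv and 0.25 in BN-Lx/Cub. Scores on the leading axis, with which Hspa13 correlated at 0.78, ran from -1.45 in SR/JrHsd 1 to 1.31 in BN-Lx/Cub 1. The part of these in the difference was not tested. Hsp90aa1 differed by 0.52 (SE 0.18) without passing (adjusted p = 0.0667). In all 15 members had an unadjusted p under 0.05, against 19.2% of all genes.

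With the replicate number as a block neither call held (adjusted p = 0.14 for Dnajb14 and 0.187 for Hspa13). The call for Dnajb14 was lost without BN-Lx/Cub animal 1 or without SHR/OlaIpcv animal 4, and that for Hspa13 without either of these, without SHR/OlaIpcv animal 1 and when only the classic inbred strains were fitted (adjusted p = 0.0634). The differences under these and the other alternatives were 0.34 to 0.75 for Dnajb14 and 0.30 to 0.74 for Hspa13, with adjusted p from 0.00376 to 0.349 and from 0.0115 to 0.442. The contrast took its estimate of spread from all animals, those of the HXB/BXH strains included, so the fit within HXB/BXH is not independent of it. In that fit both genes differed by strain (adjusted p = 0.0079 for Dnajb14 and 0.0421 for Hspa13). Strain means of Dnajb14 ran from 11.60 in HXB2/Ipcv through a median of 11.89 to 12.12 in BXH8/Cub, and 29 of the 30 lay between the progenitor means. Those of Hspa13 ran from 10.20 in HXB1/Ipcv through 10.48 to 10.68 in HXB23/Ipcv, with 28 of 30 between the progenitors. Both genes were picked for the distance between their progenitor means, which favours such counts. Hsp90aa1 and Cct8, not called but with differences of 0.52 and 0.42, had 28 and 27 strain means in between.

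**Figure D4:**
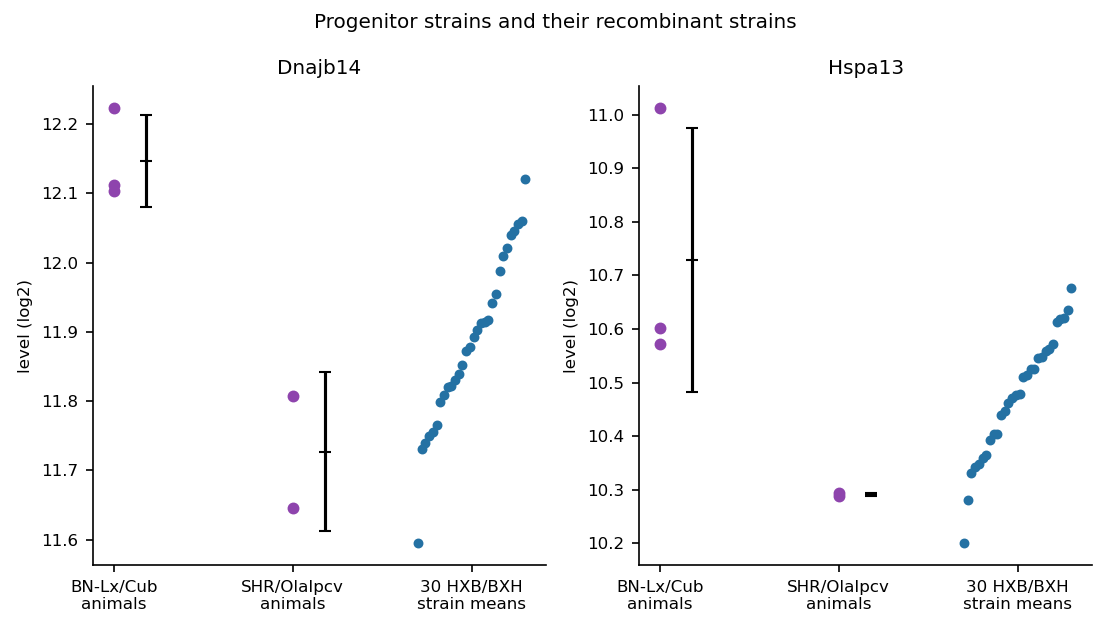
Levels of Dnajb14 and Hspa13 (log2 scale, vertical axis) in the 3 BN-Lx/Cub and 2 SHR/OlaIpcv animals (purple points, with mean ± SD in black) and the means of the 30 HXB/BXH strains in rising order (blue points); the vertical axes do not start at 0. The recombinant strains fill the range between the progenitors without a gap, 29 of 30 for Dnajb14 and 28 of 30 for Hspa13. Both genes were picked for the distance between their progenitor means, which favours such counts. The SHR/OlaIpcv points are means of 12 and 6 libraries.

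Whether strain means fell into classes was asked with normal mixtures of 1 to 3 clusters over the 30 HXB/BXH means. By the lowest BIC 13 members (15.9%) had more than 1 cluster, against 11.7% of all genes. For Dnajc22 the clusters held 20 strains at 4.51 and 10 at 4.95, and for Dnajc30 19 strains at 8.18 and 11 at 8.35. For Bag4 the smaller cluster was HXB1/Ipcv alone and for Cct5 it was HXB1/Ipcv with HXB17/Ipcv. When a further cluster had to improve the BIC by more than 6, no member kept 2 clusters, against 3.36% of all genes.

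Some strains were the extreme ones for many members. Among the 54 strains with 3 animals HXB1/Ipcv had the lowest mean for 26 members (31.7%), against 12.1% of all genes. They included Hspa5, Hsp90b1, Hspa13 and Dnajc3 of the endoplasmic reticulum, Dnaja1, Hspa4 and Hspa4l of the cytosol and Cct2, Cct4 and Cct8 of the chaperonin. Its 3 animals were below the median strain for 64, 63 and 46 of the 82 members, beside 50.7%, 49.3% and 50.2% of all genes, and came from batches 2, 6 and 5, so the third animal carried the pattern weakly. BN-Lx/Cub was highest for 14 members (17.1%, against 11.2% of all genes), but its 3 animals were above the median strain for 48, 45 and 46 members, with a median difference over the 82 members of 0.105 log2 units in animal 1 and of 0.0104 and 0.0025 in the other two, and 49.5% to 51.7% of all genes lay below it in these animals. Highest means were also found in LEXF10A/Stm for 8 (9.76% against 2.81%) and BXH8/Cub and LEXF2C/Stm for 6 each (7.32% against 0.484% and 1.09%). The 3 LEXF10A/Stm animals were above the median strain for 63, 57 and 55 members, with 51.7%, 51.7% and 50.1% of all genes below it. Members correlate with each other, and these shares are descriptions with no test.

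**Figure D5:**
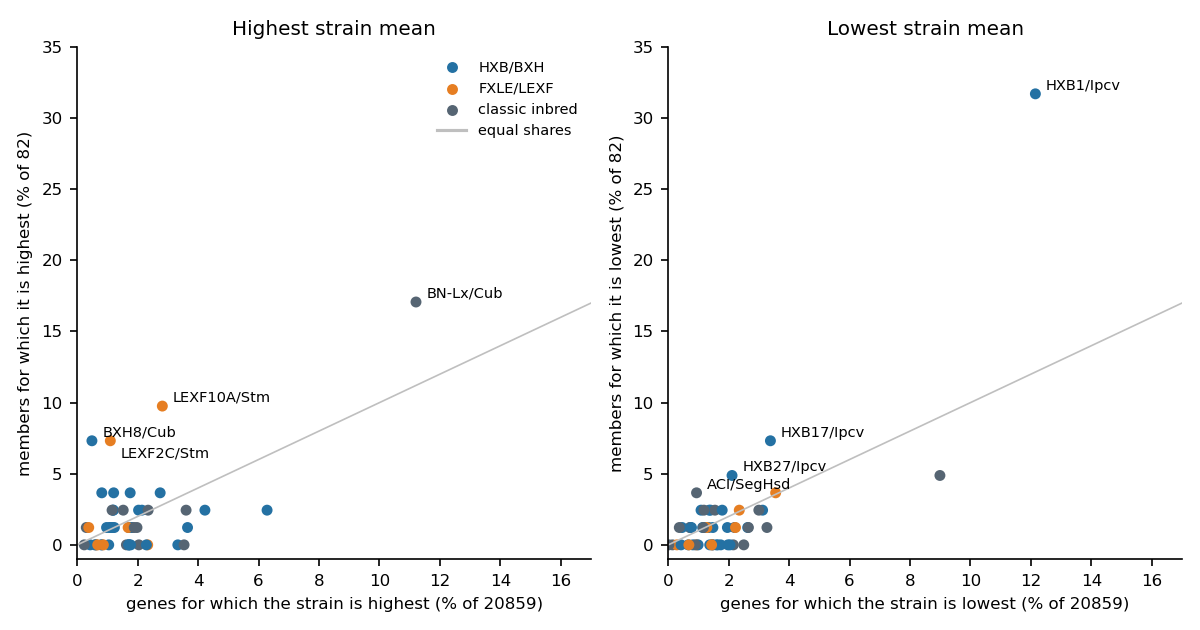
Share of the 82 members (vertical axis, %) against the share of all 20859 genes (horizontal axis, %) for which each of 54 strains with 3 animals had the highest (left) or lowest (right) mean; points are strains coloured by family and the grey line marks equal shares. HXB1/Ipcv stands far above the line on the right (31.7% against 12.1%).

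The transcript table gave 140 transcripts for 81 of the members, 36 of which had more than 1. The same test called 18 transcripts of 17 genes, against 13.9% of all transcripts, and 13 of these genes were called in the gene table too. The matching share over all genes was not counted, so this overlap is no result about the members. The transcripts named here were chosen after their values were seen. NM_001013887.1 of Dnajc18 had the highest R2, 0.761, and ran from 5.95 to 8.98, with HXB2/Ipcv lowest at 6.34 ± 0.48 (n = 2) and SHR/OlaIpcv at 8.34 ± 0.11 (n = 2) against 7.54 ± 0.26 (n = 3) in BN-Lx/Cub. The Dnajc18 gene row, by contrast, moved only from 10.29 to 10.79. Bag6, Dnajc13, Dnajc2 and Dnajc7 had a called transcript while the gene was not called. For Dnajc7, a co-chaperone of Hsp70 and Hsp90, XM_006247312.4 ran from -0.47 to 6.31 (R2 0.604) with the gene at 11.14 to 11.87. This transcript lay low on the scale, and its lowest strain was the doubtful LE/Stm animal at 1.29. Transcripts were not fitted without the doubtful animals. For Bag6, XM_006256090.1 ran from 2.22 to 10.04 (R2 0.581), with LEXF6B/Stm lowest at 3.89 ± 2.37 (n = 2), so animals of that strain differed widely.

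Of 32 pathway genes outside the symbol rule, 8 (25.0%) were called between strains, against 37.3% of all genes. Sdf2l1, a partner of Hspa5 in the endoplasmic reticulum, had R2 0.657 (adjusted p = 4.61e-08), highest in SHR/OlaIpcv at 8.30 and lowest in BN-Lx/Cub at 7.50. Cryab, a small heat shock protein of glia and lens, had R2 0.615, highest in HXB15/Ipcv at 10.92 and lowest in HXB27/Ipcv at 10.30, the strain that was lowest for Hspb1 too. Grpel2, Trap1, Ahsa2, Fkbp5, Stip1 and Hsf1 were the others, with Hsf1, the regulator of the heat shock response, near the threshold (adjusted p = 0.0415; R2 0.477). Hsf2 (0.399) and Hsf4 (0.553) did not pass. Tcp1, the remaining subunit type of the chaperonin, had an adjusted p of 0.101 and was lowest in HXB1/Ipcv at 11.92.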

How the data were processed

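Whole brain RNA of naive male rats was depleted of ribosomal RNA and sequenced from stranded libraries. The authors deposited log2 values per gene and per transcript, a regularised log2 scale; the tools their notes name are cutadapt (1.9.1), Bowtie2, HISAT2, StringTie and RSEM. The build behind the RefSeq tables and the depth of each library are not given in the sources used here. From the 214 libraries of the RefSeq gene table, 73 spike-in rows were left out, and libraries of 1 animal were averaged (197 animals). Nothing was filtered on level.

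Strain effects were tested with the moderated F-test of limma 3.58.1 (R 4.3.3) over strain, without a covariate, and progenitors with its contrast, both adjusted over all 20859 genes at 0.05. R2 is the share of each gene's summed squares that lay between strains. Clusters were fitted with mclust 6.1.1. Correlations used 100000 permutations of animals within strains. The tests were checked on simulated data. Named genes were the 12 called members with the highest R2, the heat-inducible list, the 6 with the largest within-strain SD and those called between progenitors, with chaperonin genes by range. Members and lists were chosen with earlier results of these data known. Gene values from earlier Ensembl versions (v5 and v6) were used as alternatives, beside batch, scaling, low values, moderation and left-out replicates. Replicate animals were labelled as separate animals of a strain.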

Additional observations from a re-analysis of the deposited data

How the results depend on the processing

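The limits are these. The values are log2, not counts, so depth could not be weighed, and weakly expressed members such as Hspb3 and Dnajc22 have their differences drawn in. No strain has more than 3 animals, and 62 strains have animals in at least 2 sequencing batches, with 23 libraries whose title gives another batch than their batch label. Of the alternatives, trend and robust moderation, quantile normalization, high level genes and omission of the doubtful animals left the count of called members within 1.5 times of the main one unless given below.

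Over all strains (27 members called) batch as a covariate gave 44, beside 58.7% of all genes, while 45 of 66 members were called in the v5 gene values (63.6% of its genes) and 20 of 77 in the v6 values (32.3%), which also hold fewer animals (132 of 45 strains and 165 of 58 strains), so annotation and animals changed together. In HXB/BXH (17) batch gave 26 (32.1% of all genes) and genes above the median level 10 of 61 (14.7%). In FXLE/LEXF (1) trend and robust moderation gave 4 (5.07%) and median centring 4 (4.90%). In the classic inbred strains (6) quantile normalization gave 11 (19.0%). Leaving out the animals numbered 1, 2 or 3 in turn gave 7 to 26 members over all strains (14.4% to 29.1% of all genes), 1 to 6 in HXB/BXH (8.04% to 9.31%), 0 to 3 in FXLE/LEXF (0.288% to 6.52%; limma, 5 to 19 members at an unadjusted p under 0.05), 0 to 5 in the classic inbred strains (5.75% to 11.5%; 8 to 27 members) and 5 each time of 140 transcripts (4.81% to 7.66% of all; 18 were called with no animals left out), which follows in part from fewer animals. Between the progenitors (2) batch gave 4 (7.51%), the classic inbred strains alone 1 (3.65%) and single left-out animals 0 to 5 (0.968% to 8.52% of all genes; 6 to 21 members at an unadjusted p under 0.05). Modality fell from 13 members to 0 with the stricter BIC rule.

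Replicate numbers are shared across strains, but the labels do not say that they pair animals. In HXB/BXH the numbers go with sequencing batch. Animals 1 lie in batches 1, 2 and 3, and animals 3 in batches 5, 6, 7 and 10. Leaving out a number or taking it as a block thus also changes the batches, and these cannot be told apart. Over 4240 pairs of animals of different strains with the same number the deviations correlated at 0.01 on average, 34.3% of them over 0.1, and 22.4% of animals correlated best with their own number. The fit with a replicate block called 24 members over all strains (38.3% of all genes), 18 in HXB/BXH (19.1%), 0 between the progenitors by the limma contrast (1.97%; 8 members at an unadjusted p under 0.05) and 18 transcripts (13.9%).

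Of the correlations, Hspa1b with Hsph1 became -0.012 without the 2 animals farthest from the median. Hspa1b with Dnajb1 became 0.14 with median centring. Hspa1b with Hsp90aa1 passed at -0.19 without the doubtful animals and at -0.21 without the 2 farthest. Hsp90aa1 with Hsp90ab1 passed at 0.23 with median centring. With the leading axis removed, which was added after the data were seen, it passed at 0.22, Hspa1b with Dnajb1 (0.0087) and with Hspb1 (0.11) no longer passed, and the signs of Hspa1b with Hsp90aa1 (0.11), Hspa8 (0.036), Hspa5 (0.14) and Hspd1 (0.051) turned. Median centring moved the median SD within strains to 0.195 for heat-inducible and 0.131 for constitutive members, and the SD of strain means to 0.102 for members, 0.127 for heat-inducible and 0.0933 for constitutive ones, the order being kept. Without the doubtful animals the SD of strain means of the members was 0.0961. The cause of these shifts was not tested.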
